A study of Hordeum vulgare with 2 samples.

Results

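Enzymes of glycolysis, gluconeogenesis and ethanol fermentation were followed through their cysteine peptides in an isotope-coded affinity tag (ICAT) study of thioredoxin targets in barley embryos. They are the peptides whose deposited protein name, in either run, holds the name of an enzyme of these pathways (enolase, alcohol dehydrogenase other than the allyl form, pyruvate kinase, triosephosphate isomerase and the like). The rule gave 15 peptides of 11 protein entries, out of 210 peptides of 163 entries in all. It used names only and no measured value. The entries include enolase (ENO_ORYSJ), alcohol dehydrogenase 1 (ADH1_HORVU) and fructose-1,6-bisphosphatase 2 (TC131623). Hexokinase, fructokinase, phosphoglucomutase and pyruvate decarboxylase were also searched for, and 0 peptides carried their names.

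Both runs used protein extract of embryos dissected from grain of the malting barley cultivar Barke after 48 h of germination. In both, thiols that were free at extraction were capped with iodoacetamide (IAM), and the extract was then left for 1 h with or without thioredoxin (Trx), the arms being tagged afterwards with light ICAT (with Trx) or heavy ICAT (without Trx) and mixed in equal parts. In the blocked run, 10 mM IAM followed the incubation and capped thiols that Trx had opened, so that only cysteines still closed could take up a tag. In the control run this second IAM step was left out. One label of the control, its source name, has it as untreated, whereas its title and description give the same incubation as in the blocked run, and the title and description were followed. Each run is 1 sample of a crude extract. The ± values are the authors' SD of the ratios behind a peptide, their number is unknown, and no replicate error or p-value exists for the difference between runs.

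Glycolysis splits hexose phosphates into triose phosphates and oxidises these to pyruvate. Ethanol fermentation then turns pyruvate into ethanol and so restores the NAD+ that glycolysis consumes, which lets the embryo make ATP while oxygen is scarce in the imbibed grain. Gluconeogenesis shares most of these enzymes and runs towards sugar, with fructose-1,6-bisphosphatase in place of phosphofructokinase. Thioredoxin is a small dithiol protein that reduces disulfides of other proteins, and chloroplast fructose-1,6-bisphosphatase is one of its classic targets. Plant enolase has been described as sensitive to oxidation.

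The measured items are tryptic peptides, and each ratio belongs to the cysteine or cysteines its peptide holds. The enolase and triosephosphate isomerase peptides are numbered here by their ratio, with a triosephosphate isomerase peptide of the control run only as number 3. Enolase peptide 1 has 18 residues with cysteines at positions 10 and 11 from its amino end, the only pair among these enzymes. Enolase peptide 2 has 6 residues with the cysteine at position 5, and peptide 3 has 8 with it at position 2. The triosephosphate isomerase peptides have 12, 13 and 15 residues, with the cysteine at position 4 in the shortest and at position 12 in the other two. Alcohol dehydrogenase 1 was measured through a peptide of 10 residues (cysteine at 3), and alcohol dehydrogenase class-3 through one of 12 (cysteine at 10). The pyruvate kinase-like peptide has 12 residues and begins with its cysteine, and that of fructose-1,6-bisphosphatase 2 has 12 with the cysteine at position 7. The remaining peptides belong to glucose-6-phosphate isomerase (11 residues, cysteine at 4), aldolase (28 residues, cysteine at 5), glyceraldehyde-3-phosphate dehydrogenase (8 residues, cysteine at 7), phosphoglycerate kinase (22 residues, cysteine at 15) and phosphoglycerate mutase (23 residues, cysteine at 22).

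The heavy/light ratio rises above 1 when the Trx arm lost tag. A ratio was counted as high above 1.24, the control mean plus 2 SD of log2 ratio over all control peptides. In the blocked run 7 of the 14 peptides of these enzymes passed this limit (50%, exact Clopper-Pearson 95% interval 23.0% to 77.0%, counting error only), where 50.8% of all 199 peptides did. As a set they therefore lay at the level of the whole run. Their median ratio was 1.28, and that of the 185 peptides of other proteins was 1.25. Within the set the ratios ran between 1.01 for aldolase and 2.46 for enolase peptide 1, inside the span of 0.863 to 2.64 of the other proteins. Of the 14 peptides, 3 were among the 25 highest of the 199.

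In the control run 0 of 9 peptides passed the limit, which allows a share of up to 33.3% (3 counts of the total), and 2.15% of all 93 control peptides did. Their median was 1.02, with a range of 0.853 to 1.18, against 1.01 over all control peptides. The control peptides set the limit, so few of them can lie outside it. In the blocked run the 7 high peptides belonged to 5 entries, and the other 6 entries had 0 high peptides. Over all 163 entries, 79 had high peptides only, 76 had none and 8 had peptides on both sides of the limit. Among these enzymes only enolase (3 peptides) and triosephosphate isomerase (2 peptides) could have fallen on both sides.

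**Figure D1:**
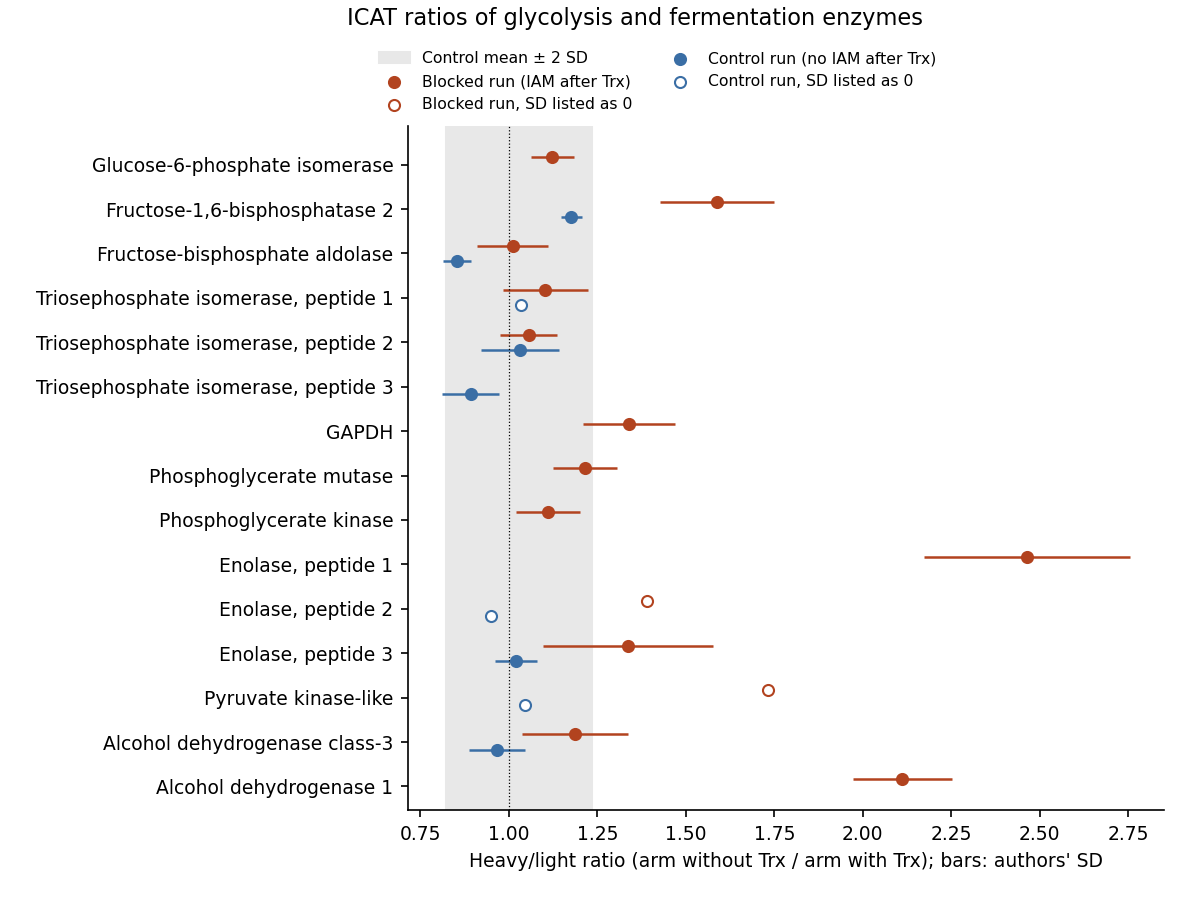
Heavy/light ratio of each peptide (x axis, arm without Trx over arm with Trx) in the blocked run (red) and the control run (blue), with the authors' SD as bars and open points where the SD is listed as 0. The grey band is the control mean ± 2 SD, and 7 of 14 blocked values lie to its right while all 9 control values lie inside it.

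At the head of the pathway, glucose-6-phosphate isomerase (G6PI1_CLAXA), which interconverts glucose 6-phosphate and fructose 6-phosphate, had 1.12 ± 0.06 in the blocked run. Its whole SD range stayed under the limit. It was not among the control peptides.

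Fructose-1,6-bisphosphatase 2, the gluconeogenic enzyme that removes a phosphate from fructose 1,6-bisphosphate, had a ratio of 1.59 ± 0.16 with the block, against 1.18 ± 0.03 in the control. Both values ranked in the upper part of their run, at place 43 of 199 with the block and place 7 of 93 without it. Only the blocked value passed the limit. The ratios differed by 0.41 ± 0.16 (SDs combined as independent), a 1.35-fold difference, and the SD ranges were 0.22 apart. The apparent loss of tag in the Trx arm, 100 × (1 − light/heavy), was 37.0% with the block and 14.97% without it. The deposited name does not say whether this is the cytosolic or the chloroplast enzyme.

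Aldolase (ALF_ORYSJ), which cleaves fructose 1,6-bisphosphate, had the lowest ratio of the group in both runs, 1.01 ± 0.10 with the block and 0.853 ± 0.04 without it. Its SD ranges were apart by only 0.018, and its blocked value lay at 1, so that its 1.19-fold difference came with a control ratio under 1. Fructose-1,6-bisphosphatase 2 and aldolase act on the same sugar bisphosphate, and their blocked ratios lay at opposite sides of the limit.

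Triosephosphate isomerase (TPIS_HORVU), which interconverts the triose phosphates, gave the flattest values. Peptide 1 had 1.10 ± 0.12 with the block, against 1.035 in the control, where its SD is listed as 0. Peptide 2 had 1.06 ± 0.08 and 1.03 ± 0.11, a difference of 0.025 ± 0.14. Peptide 3 was found in the control run only, at 0.892 ± 0.08. The SD ranges of peptides 1 and 2 overlapped in the blocked run, and those of peptides 2 and 3 in the control run. The control gap between peptides 2 and 3, 0.139, was about the size of their combined SD, 0.136. Peptide 1 could not be set against peptide 3 by SD ranges, as its control SD is listed as 0.

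Glyceraldehyde-3-phosphate dehydrogenase (G3PE_MAIZE), which oxidises glyceraldehyde 3-phosphate and makes the NADH that fermentation consumes, had 1.34 ± 0.13 in the blocked run. It passed the limit, but the lower end of its SD range, 1.21, did not. This enzyme is known for a catalytic cysteine in a conserved SCTTN stretch. The letters SCTTN occur in 0 peptides of either run, so the ratio belongs to another cysteine of the protein.

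In lower glycolysis, phosphoglycerate kinase (named as cytosolic), the first ATP-forming step, had 1.11 ± 0.09 in the blocked run. Phosphoglycerate mutase (TC146528), which moves the phosphate between carbons, had 1.215 ± 0.09. This was the value closest under the limit, and its SD range reached 1.305. Neither was measured in the control run.

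Enolase, which forms phosphoenolpyruvate, was the only one of these enzymes with more than 1 high peptide. With the block, peptide 1, with the cysteine pair, had 2.46 ± 0.29, the second highest of the 199 peptides. Peptide 2 had 1.389 with an SD listed as 0, and peptide 3 had 1.34 ± 0.24. Peptides 2 and 3 had 0.949 and 1.02 ± 0.06 in the control run, where peptide 1 was not found.

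Enolase peptide 1 stood 1.84-fold over peptide 3 (0.88 on the log2 scale), and their SD ranges did not overlap. Peptides 2 and 3, each with 1 cysteine, were 0.055 apart on the log2 scale. The tall value of enolase thus belongs to the 2-cysteine peptide. Its identified form carries a tag on both cysteines, and a copy tagged at only 1 of them would have another mass, so its ratio is not a loss per cysteine. Among the 199 blocked peptides, 13 hold several cysteines, and 10 of these (76.9%, median ratio 1.67) were high, against 91 of the 186 with 1 cysteine (48.9%, median 1.23). Besides enolase, 4 blocked peptides of other proteins hold adjacent cysteines, with ratios of 1.51 to 1.83, all above the limit and all under enolase.

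Between the runs, enolase peptide 2 was 1.46-fold higher with the block than without it, and peptide 3 was 1.31-fold higher. For peptide 3 the difference in ratio was 0.32 ± 0.25, and the SD ranges were 0.017 apart. For peptide 2 no error can be given. The control table lists both peptides also under the Arabidopsis and maize entries ENO_ARATH and ENO2_MAIZE, so they do not single out 1 enolase, and the name ENO_ORYSJ is that of the rice protein.

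The pyruvate kinase-like protein (an entry of the grass Deschampsia antarctica), from the family that makes pyruvate and ATP from phosphoenolpyruvate, had 1.731 with the block and 1.046 without it. Its 1.65-fold difference was the largest among the shared peptides of these enzymes and the seventh largest (place 7) of the 82 shared peptides. Both SDs are listed as 0, so its error is unknown. The apparent loss of tag was 42.2% with the block and 4.40% without it.

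Alcohol dehydrogenase 1, which reduces acetaldehyde to ethanol in the last step of fermentation, had 2.11 ± 0.14 in the blocked run, the third highest ratio (place 3). With a single cysteine in the peptide, its apparent loss of tag was 52.7%. It has no control value. The peptide is also listed under alcohol dehydrogenases of maize, rice and millet, ADH2_MAIZE among them, so it does not separate the isoenzymes.

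Alcohol dehydrogenase class-3 (ADHX_ORYSI) met the rule by its name, although class-3 enzymes are known for oxidising the glutathione adduct of formaldehyde and reducing nitrosoglutathione and not for fermentation. It had 1.19 ± 0.15 with the block, against 0.966 ± 0.08 in the control, with overlapping SD ranges and a difference of 0.22 ± 0.17. In the blocked run alcohol dehydrogenase 1 was 1.78-fold over the class-3 enzyme, and their SD ranges were apart. The ratios of the 2 proteins that share the name thus lay on opposite sides of the limit, but the SD range of the class-3 enzyme crossed it, reaching 1.336.

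**Figure D2:**
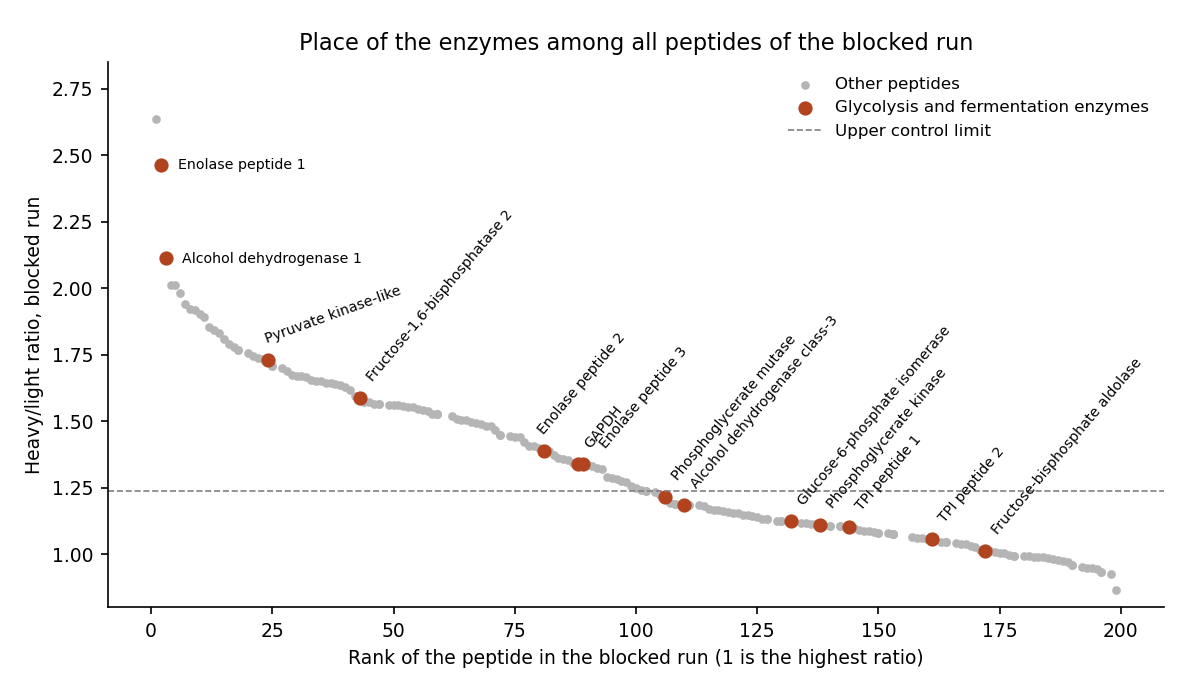
All 199 peptides of the blocked run ordered by heavy/light ratio (y axis) from rank 1, the highest (x axis), with the 14 peptides of these enzymes in red and the upper control limit dashed. Enolase peptide 1 and alcohol dehydrogenase 1 hold ranks 2 and 3, and the remaining enzymes spread from rank 24 to rank 172.

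By role, 0 of 1 peptide of sugar isomerisation and 2 of 5 of the triose and hexose bisphosphate steps were high in the blocked run. So were 4 of 6 of lower glycolysis and 1 of 2 under the name alcohol dehydrogenase, against 50.8% of all 199 peptides. Of the 4 in lower glycolysis, 3 are peptides of enolase, and those of phosphoglycerate kinase and mutase were not high. The authors' SD ranges lay wholly above the limit for 3 peptides (enolase peptide 1, alcohol dehydrogenase 1 and fructose-1,6-bisphosphatase 2) and wholly under it for 5. The ranges of 4 peptides crossed it, and 2 peptides have an SD listed as 0. This split was not computed over all 199 peptides, so it cannot be set against the run.

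Of the 8 peptides measured in both runs, all 8 had a higher ratio with the block, as did 98.8% of all 82 shared peptides. At the median they were higher by 0.34 in log2 ratio (1.27-fold, range 1.02-fold to 1.65-fold), against 0.31 (1.24-fold) for the 74 shared peptides of other proteins. Both runs report an SD above 0 for 5 of the 8, and SD ranges were apart for 3 of them (fructose-1,6-bisphosphatase 2, aldolase and enolase peptide 3). Over all proteins 62.3% of the 69 such peptides had ranges apart with a higher ratio in the blocked run. With ranges of 2 SD, 1 of the 5 remained apart, and the share over all proteins at 2 SD was not computed.

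When the blocked run was divided by the 1.24-fold median difference of the shared peptides of other proteins, 4 of the 14 peptides stayed above the limit, and the median ratio of the 14 was 1.03. These were enolase peptide 1, alcohol dehydrogenase 1, the pyruvate kinase-like protein and fructose-1,6-bisphosphatase 2. The same 4 lay above the highest control peptide, and above a ratio of 1.5. Passing these 2 limits was common in the run, as places 1 to 77 and places 1 to 65 of all 199 peptides did so. After the division, places 1 to 57 of all 199 peptides stayed above the control limit, so passing it was common as well. Enolase peptides 2 and 3 and glyceraldehyde-3-phosphate dehydrogenase did not pass any of these 3 stricter settings.

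**Figure D3:**
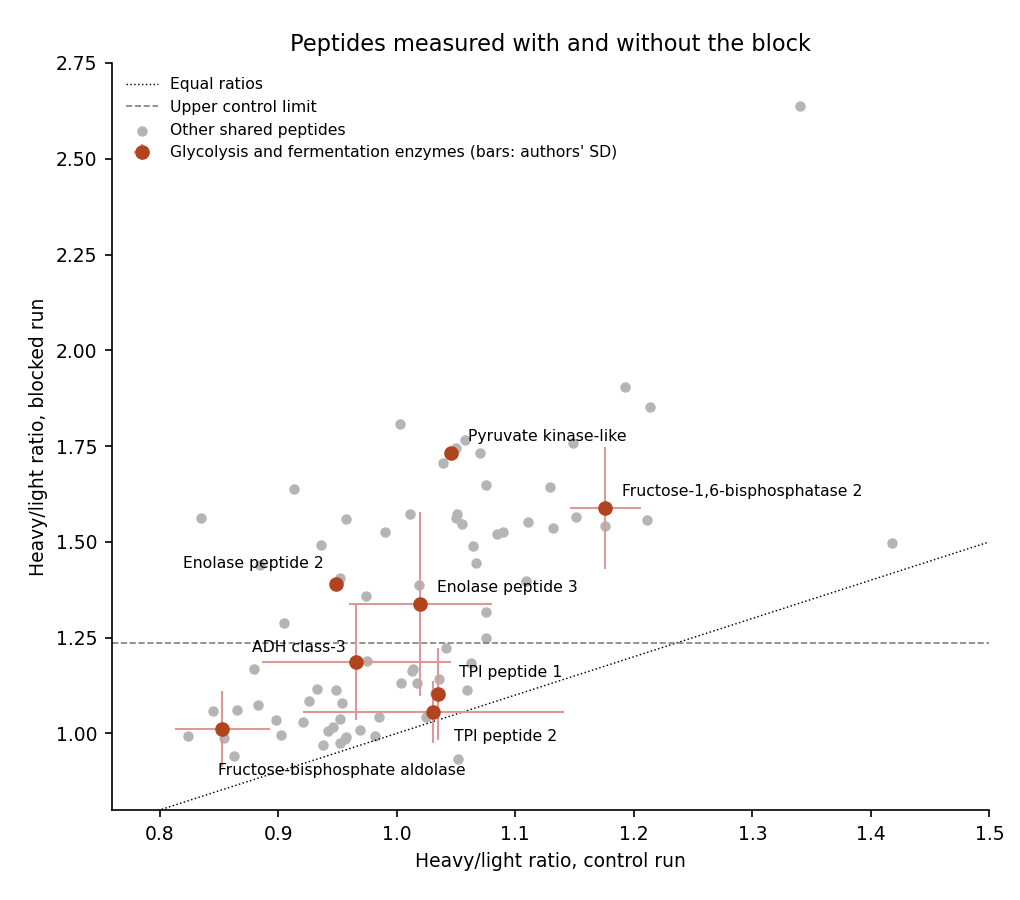
Heavy/light ratio in the blocked run (y axis) against the control run (x axis) for the 82 peptides of both runs. The 8 peptides of these enzymes are in red with the authors' SD as bars (none where the SD is listed as 0), and all 8 lie above the dotted line of equal ratios, with triosephosphate isomerase (TPI) closest to it.

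The residues beside the cysteine can be compared for a few peptides only. Fructose-1,6-bisphosphatase 2 and glucose-6-phosphate isomerase both carry proline before and aspartate after the cysteine, a setting found in 0 single-cysteine peptides of other proteins in the blocked run, and their blocked ratios of 1.59 ± 0.16 and 1.12 ± 0.06 had SD ranges apart. The 3 peptides with glycine before the cysteine were alcohol dehydrogenase 1, glyceraldehyde-3-phosphate dehydrogenase and alcohol dehydrogenase class-3, with 2.11, 1.34 and 1.19. With a hydrophobic residue after a single cysteine, 0 of 3 of these enzymes' peptides were high, and with another residue 6 of 10 were. Among other proteins the shares were 37 of 73 (50.7%) and 48 of 100 (48%) with and without such a residue. The difference between these enzymes and other proteins was not tested, and 0 of 3 is too few peptides to set against a share of about 50%.

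Peptide quality differed between the high and the other peptides of these enzymes. In the blocked run the 7 high peptides had Mascot scores of 23 to 44 (median 35) and 6 to 18 residues (median 10). The 7 within the limits had scores of 20 to 82 (median 47) and 11 to 28 residues (median 13). For other proteins the median scores ran the other way, 45 for high peptides and 39 for those within the limits, with 13 residues for each. With a score of at least 40 in the run and a limit set from such control peptides, 1 of the 5 remaining peptides of these enzymes was high, enolase peptide 1. At the main limit, these enzymes had 1 high peptide with such a score and 4 within the limits. Other proteins had 57 high and 44 within. The part of score and length in the result was not tested.

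Neighbouring steps of carbon metabolism also divided. Of 4 blocked peptides listed by name under the citric acid cycle and pyruvate oxidation, 2 were high, dihydrolipoyl dehydrogenase at 1.891 and succinyl-CoA ligase at 1.78 ± 0.17. Succinate dehydrogenase (1.04 ± 0.30) and malate dehydrogenase (0.969 ± 0.09) were not. The SD of dihydrolipoyl dehydrogenase is listed as 0, and the succinyl-CoA ligase peptide holds 2 cysteines. The malate dehydrogenase entry is named as cytosolic, so it met the list by its name only. Of 5 peptides of sugar nucleotide, sucrose and starch enzymes, 2 were high, and sucrose synthase 1, which splits sucrose on entry to glycolysis, had 1.249 ± 0.10, just above the limit. No pentose phosphate enzyme was found under the names searched (0 peptides). The alpha subunit of the pyrophosphate-dependent phosphofructokinase (PFPA_SOLTU), which interconverts fructose 6-phosphate and fructose 1,6-bisphosphate, falls outside the rule by its name and had 0.958 in the blocked run, with an SD listed as 0. It was added after its value was seen.

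**Figure D4:**
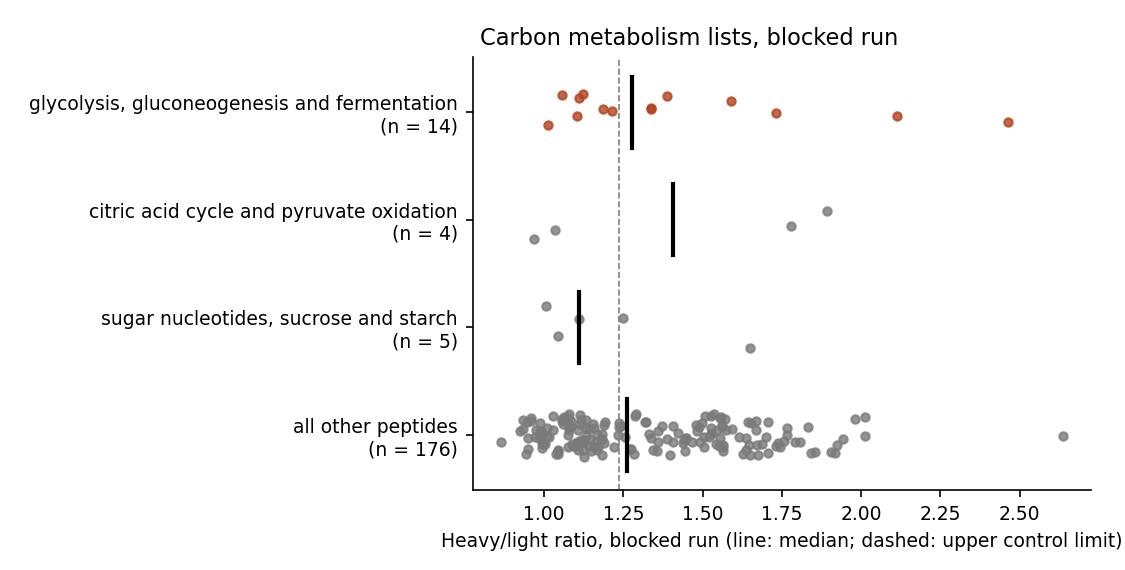
Heavy/light ratios of the blocked run (x axis), with a black line at each median and the upper control limit dashed. Shown are the 14 peptides of these enzymes and 4 listed by name under the citric acid cycle and pyruvate oxidation, cytosolic malate dehydrogenase among them. The other rows hold 5 peptides of sugar nucleotide, sucrose and starch enzymes, and 176 other peptides. Each list has peptides on both sides of the limit, and the highest carbon metabolism value is that of enolase peptide 1 at 2.46.

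Across the whole runs, Mascot scores ran between 20 and 118 with the block and between 21 and 90 without it. Marker proteins were counted for the embryo label, but with 5 peptides for each list in the blocked run they cannot settle the tissue. Embryo proteins (embryo globulin, embryo-specific protein, PER1) gave 5 peptides of 3 entries in the blocked run and 4 peptides of 2 entries in the control run. Endosperm and aleurone proteins (hordein, beta-amylase, amylase inhibitor, avenin-like protein) gave 5 peptides of 4 entries in the blocked run and 1 peptide of 1 entry in the control, and the part of other grain tissues in the enzymes' ratios was not tested.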

How the data were processed

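The deposited heavy/light ratio of a peptide is the authors' average of its measured ratios, and the deposited SD is in the same ratio unit, per the file headers. The score column, as deposited, is that of the Mascot search. Per the series description, peak lists were searched with Mascot against green plant entries of Swiss-Prot 54.6, a public non-redundant collection and the barley gene index HvGI 9.0 (mass tolerance 0.2 Da), ratios came from MSQuant 1.4.3a12, spectra were inspected by hand, and peptides with a score of 20 and a sequence tag of at least 3 residues were kept. No source used here says whether ratios were centred.

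Here, both tables were joined on peptide sequence, ratios were taken to log2, and limits were set at the control mean ± 2 SD (0.822 to 1.24 as ratios). SD ranges were compared where both SDs were above 0. With 1 sample a group nothing was tested, and peptides are not replicates. Every peptide that met the rule is named. Members and lists were chosen with earlier results of these data known. Of 11 entries, 0 matched the gene table given, so no gene position is printed. Limits and counts were tested on simulated data. Python 3.11.15, pandas 2.3.3 and numpy 2.4.6 were used. Alternatives covered the limit, score, cysteine number, run overlap, protein entries and scaling.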

Additional observations from a re-analysis of the deposited data

How the results depend on the processing

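Of 43 alternatives over 6 results, 31 gave a count within a factor of 1.5 or a value within the authors' median SD, 12 moved and 0 changed direction. Counts, the median ratio and the enolase span had no direction to change, so only the median shared difference could. Settings that only leave out peptides could not reverse it, as all 8 shared peptides were higher with the block. The 0 is therefore largely fixed in advance. The 7 high peptides of the blocked run became 4 above the highest control peptide, 4 above a ratio of 1.5 and 2 above a ratio of 2, by construction of stricter limits. Among all 199 peptides, places 1 to 77, 1 to 65 and 1 to 5 passed these limits. Fewer peptides entered in the next settings. With peptides of both runs 4 of 8 were high, again 50%, so only the count moved. The share over all shared peptides was not computed. With a score of at least 40, 1 of 5 was high. Other proteins at such scores had 57 high peptides and 44 within, at the main limit. Division by the median fold of shared peptides of other proteins gave 4, a median ratio of 1.03, and 0.034 in log2 ratio as the median over shared peptides. Among all 199 peptides, places 1 to 57 passed the limit after this division. The score minimum also took the median ratio to 1.10 and the median shared difference to 0.17 in log2 ratio, over 2 peptides, in place of 0.34 (a move within the authors' median SD), and left 1 of 1 shared peptides with SD ranges apart. Ranges of 2 SD gave 1 of 5 in place of 3, by construction of a stricter rule, and the share over all proteins was not computed. The span of the enolase peptides was 0.055 on the log2 scale with 1-cysteine peptides only, since the 2-cysteine peptide then leaves. The control count of 0 was the same under its 10 alternatives, but limits stricter than the main one could give only 0. All 8 shared peptides have 1 cysteine, so the 1-cysteine setting repeats their main values. All enolase peptides are of 1 entry, so taking every peptide named enolase repeats the main span. Such fixed outcomes are among the 31. SD ranges per protein entry were not run, as entries have no SD. Leaving out SDs listed as 0, leaving out the class-3 alcohol dehydrogenase and adding the phosphofructokinase subunit were chosen after seeing the data. Of the 14 blocked peptides, 6 have no control value.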

Other observations

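Each peptide also has a calculated mass and a mass error. For 4 peptides of these enzymes the values come from a light form in one run and a heavy form in the other. In all 4 the calculated masses differ by 9.03 Da per cysteine, as in all 36 such peptides of the runs. Calculated masses follow from the sequence and label form assigned in the search, so this difference was fixed and does not test a match. Calibrated mass errors in the blocked run had a median size of 3.38 ppm over the 14 peptides and 4.49 ppm over all 199. Aldolase was the exception at -27.4 ppm, the largest error of that run. In the control run triosephosphate isomerase peptide 1 had 28.3 ppm and enolase peptide 2 had -25.0 ppm, against a median size of 7.66 ppm over all 93 peptides. Their part in the ratios was not tested.

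The relative SD (SD over ratio) of these enzymes had a median of 9.80% with the block and 7.08% without it, against 8.10% and 6.65% over all peptides, each over peptides with an SD above 0. The widest was that of enolase peptide 3 in the blocked run, at 18.0%, against 5.88% in the control run.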
